A study of Mus musculus with 16 samples.

Results

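Genes of the immediate early class were followed in adipose tissue macrophages (ATMs), namely Fos, Fosb, Jun, Junb, Jund, Egr1, Egr2, Egr3, Atf3 and Ier2. They were chosen by name, as 10 of the 37310 genes in the count table, and every one passed the filter on low counts. RNA of F4/80+ cells from epididymal fat had been sequenced from 16 male mice, 4 from each genotype, WT and IRF5-KO, after a short-term (ST-HFD) or a long-term high-fat diet (LT-HFD). The diet lasted 4 weeks in ST-HFD and 12 weeks in LT-HFD and was started at an age between 7 and 10 weeks, so every group was fed HFD and no library came from lean mice. IRF5-KO mice carried a floxed Irf5 gene and LysM-Cre, a Cre recombinase expressed from the Lyz2 gene of myeloid cells, which deletes in monocytes and neutrophils as well as in macrophages, and the controls were labelled WT. The cells of all groups were released from the tissue with collagenase at 37 °C and taken with magnetic beads before RNA was extracted.

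Immediate early genes are transcribed within minutes of a stimulus without the need for new protein synthesis, because the factors that switch them on, such as SRF with its ELK cofactors and CREB, are already present and are activated by kinases. Their mRNAs are short-lived, so their level at harvest reflects the last stretch of time before lysis. Fos and Jun proteins pair to form AP-1, a transcription factor that in macrophages acts on cytokine, protease and survival genes. EGR proteins are zinc-finger transcription factors, and Egr1 and Egr2 are known for their part in the differentiation and activation of myeloid cells. In solid tissues these genes are also known to be induced while cells are being dissociated with enzymes.

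The libraries held 3279332 to 4958131 counts, with 3860469 to 4958131 in the ST-HFD and 3279332 to 3792898 in the LT-HFD libraries, and the 10 genes together took 0.457% to 1.29% of them. All 10 macrophage markers examined were detected and passed the filter, among them Emr1 (the gene of F4/80), Csf1r, Cd68, C1qa and Mrc1. Markers of fibroblasts and preadipocytes (8 of 8 passed the filter, none at 0) summed to 983 to 1120.4 CPM (counts scaled to a common library size) in WT ST-HFD, 663 to 1627 CPM in IRF5-KO ST-HFD, 3033 to 8802 CPM in WT LT-HFD and 3176 to 7254 CPM in IRF5-KO LT-HFD. The level of Irf5 itself did not fall with the IRF5-KO label, at 203 to 252 CPM in WT and 250.4 to 274 CPM in IRF5-KO for ST-HFD, and at 170.5 to 213 and 206 to 253 CPM for LT-HFD. These are totals over the whole gene, which do not separate deleted exons from the others, so they do not check the genotype, and WT and IRF5-KO refer throughout to the labels of the libraries. The labels number the libraries of each group from 1 to 4 and do not name the animals, so p-values measure the spread between these samples.

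The promoters of 4 of the genes are shown for exact matches to short elements through which immediate early genes are classically induced. The windows are the 150 bases before the RefSeq gene start on GRCm38.p6, written 5′ to 3′ on the strand of the gene, and capitals mark a cyclic AMP response element half-site (TGACG, or CGTCA on the other strand) or a CArG box, the site bound by SRF. The Fos window lies at chr12:85473740-85473889 on the plus strand, the Jun window at chr4:95052223-95052372 on the minus strand, the Junb window at chr8:84978749-84978898 on the minus strand and the window of the third of 5 Egr2 starts at chr10:67537719-67537868 on the plus strand.
Fos: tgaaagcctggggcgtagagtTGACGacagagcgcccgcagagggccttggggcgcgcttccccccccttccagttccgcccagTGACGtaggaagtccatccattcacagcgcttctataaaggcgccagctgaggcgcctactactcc
Jun: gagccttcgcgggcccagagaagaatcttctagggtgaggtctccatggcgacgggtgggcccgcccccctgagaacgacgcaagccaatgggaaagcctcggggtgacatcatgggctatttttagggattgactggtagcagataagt
Junb: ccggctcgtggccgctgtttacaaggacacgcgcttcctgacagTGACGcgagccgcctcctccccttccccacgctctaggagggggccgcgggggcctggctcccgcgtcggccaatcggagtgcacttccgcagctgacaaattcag
Egr2: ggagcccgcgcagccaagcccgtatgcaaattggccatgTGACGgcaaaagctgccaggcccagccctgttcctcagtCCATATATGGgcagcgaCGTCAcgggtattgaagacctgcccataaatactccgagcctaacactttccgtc
In the windows searched for 7 of the 10 genes, 5 genes held at least 1 half-site on either strand (Fos, Fosb, Junb, Egr2 and Atf3), against 15% of all 27025 genes and 13.3% of all 32851 windows of the same length. Of these 7 genes, a CArG box was found for Egr2 alone, against 1.04% of all genes and 0.916% of all windows. Egr2 had 5 windows and the other 6 genes 1 each, and 3 of the 5 held a half-site and 4 a CArG box, windows that overlap in part. The whole element TGACGTCA, which contains the half-site on both strands, and the AP-1 site TGANTCA were in none of the 7 genes, against 1.36% and 4.24% of all windows, and the EGR site GCGNGGGCG was in that of Fosb and in 3.81% of all. These are exact matches of letters within 150 bases, and elements farther out were not searched. Variants of a site, such as TGACATCA in the Jun window, were not counted, so a window without a match is not shown to lack such sites. Egr1, Egr3 and Ier2 were not searched and are not shown.

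Most of these genes were among the most abundant mRNAs of the cells. Compared per kilobase of exon, Fos had the highest mean level over the 16 libraries, 693 ± 155 CPM per kb (SD, n = 16), followed by Jun at 609.7 ± 224, Junb at 504 ± 155 and Jund at 472 ± 174 CPM per kb. Egr1 stood at 298 ± 149, Atf3 at 230.0 ± 67.3 and Ier2 at 221 ± 70.1 CPM per kb. Fosb was at 87.7 ± 47.7, Egr2 at 24.6 ± 8.99 and Egr3 at 2.15 ± 1.05 CPM per kb. From Fos down to Ier2, every step between neighbours in this order was smaller than the larger of their SDs, the step from Jund to Egr1 only barely so, whereas the steps from Ier2 to Fosb, Egr2 and Egr3 were each larger. In CPM without the correction for length, Jun ranked 25 and Fos 34 of the 11560 genes tested over 16 libraries, while Egr3 ranked 8232 with only 10 to 78 counts per library, so that its values carry the largest counting error of the 10. Jun, Junb, Jund and Atf3 overlap a gene on the opposite strand (Junos, Prdx2, Gm11175 and Gm24748), and the strand setting of the counting is not given in the sources used here, so reads of these partners cannot be told apart from theirs.

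Fos and Fosb encode the Fos-type partners of AP-1, which bind DNA only when paired with a Jun protein. Fos (ENSMUSG00000021250, GRCm38 chromosome 12, 85473890 to 85477273) was at 1803, 2215, 919 and 1757 CPM in WT ST-HFD replicates 1 to 4 and at 1819, 2094, 2094 and 1188 CPM in IRF5-KO ST-HFD. On LT-HFD it was at 1558, 1624, 1399 and 1851 CPM in WT and at 1764, 1177, 1368 and 1455 CPM in IRF5-KO. All 4 groups overlapped, and the lowest value on ST-HFD in each genotype stood well under the other 3. Fosb (ENSMUSG00000003545, chromosome 7, 19302696 to 19310051) was at 809, 1049, 245 and 548 CPM in WT ST-HFD and 744, 1076, 1018 and 291 CPM in IRF5-KO ST-HFD. It was at 432, 387, 351 and 456 CPM in WT LT-HFD and 513, 187, 294 and 365 CPM in IRF5-KO LT-HFD. Its range was the wider of the pair in 3 of the 4 groups and slightly the narrower in WT LT-HFD, being 4.28-fold in WT ST-HFD against 2.41-fold for Fos, and on ST-HFD 3 libraries of each genotype exceeded every LT-HFD library while the remaining library fell among them.

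Jun, Junb and Jund encode the Jun-type partners, of which Jun is the classic activator, Junb is strongly inducible and is often described as restraining Jun, and Jund is known for its more constant expression. Jun (ENSMUSG00000052684, chromosome 4, 95049034 to 95052222) was at 2155, 2969, 1059.9 and 1656 CPM in WT ST-HFD and 1782, 3443, 2889 and 1272 CPM in IRF5-KO ST-HFD. On LT-HFD it was at 1806, 2433, 1387 and 2287 CPM in WT and 2025, 979.7, 1331 and 1634 CPM in IRF5-KO, with overlap between all groups. Junb (ENSMUSG00000052837, chromosome 8, 84974484 to 84978718) was at 998, 1333, 548 and 933 CPM in WT ST-HFD and 915, 1349, 1499 and 708 CPM in IRF5-KO ST-HFD. It reached 1311, 1877, 1154 and 1703 CPM in WT LT-HFD, where 2 libraries exceeded all others, and 1267, 756, 1037 and 1155 CPM in IRF5-KO LT-HFD. Jund (ENSMUSG00000071076, chromosome 8, 70698949 to 70700616) was at 879, 1283, 692 and 754 CPM in WT ST-HFD and 830.3, 1432, 1201 and 759 CPM in IRF5-KO ST-HFD. It was at 668, 841, 546 and 608 CPM in WT LT-HFD and 566, 436, 441 and 657 CPM in IRF5-KO LT-HFD, and the IRF5-KO libraries of the 2 durations did not overlap.

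Among the EGR genes, Egr1 (ENSMUSG00000038418, chromosome 18, 34859823 to 34864984) was at 1764, 2221, 555 and 1376 CPM in WT ST-HFD and 1699, 2526, 2606 and 678 CPM in IRF5-KO ST-HFD. On LT-HFD it was at 1366, 1271, 884 and 1237 CPM in WT and 894, 593, 632 and 1041 CPM in IRF5-KO. Its 2 lowest ST-HFD libraries fell within or below the LT-HFD range, and the other 6 exceeded all LT-HFD libraries. Egr2 (ENSMUSG00000037868, chromosome 10, 67535475 to 67542188) was at 122, 115, 48.1 and 95.2 CPM in WT ST-HFD, 112, 128, 104 and 42.8 CPM in IRF5-KO ST-HFD, 107, 89.1, 65.6 and 46.5 CPM in WT LT-HFD and 97.9, 46.4, 62.1 and 53.4 CPM in IRF5-KO LT-HFD, and all groups overlapped. Egr3 (ENSMUSG00000033730, chromosome 14, 70077203 to 70082614), which calcium signals are known to induce in lymphocytes, was the scarcest of the 10. It was at 13.7, 12.1, 4.81 and 6.41 CPM in WT ST-HFD, 12.6, 20.1, 14.3 and 2.46 CPM in IRF5-KO ST-HFD, 10.9, 4.54, 7.51 and 8.97 CPM in WT LT-HFD and 10.5, 5.15, 5.90 and 12.0 CPM in IRF5-KO LT-HFD, with overlap between all groups.

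Atf3, a stress-induced factor of the ATF family that restrains inflammatory genes in macrophages, lies on chromosome 1 (ENSMUSG00000026628, 191170296 to 191218039). It was at 608, 664, 216 and 594 CPM in WT ST-HFD and 648, 705, 606 and 341 CPM in IRF5-KO ST-HFD, and at 527, 530.0, 455 and 431 CPM in WT LT-HFD and 560.4, 313, 396 and 330.2 CPM in IRF5-KO LT-HFD. Ier2, a small nuclear protein of the immediate early class, lies on chromosome 8 (ENSMUSG00000053560, 84661331 to 84662852). It was at 277, 385, 174 and 254 CPM in WT ST-HFD and 233, 382, 425 and 197 CPM in IRF5-KO ST-HFD, and at 395, 506, 296 and 535 CPM in WT LT-HFD and 348, 229, 338 and 415 CPM in IRF5-KO LT-HFD. For both genes the groups overlapped, and the lowest library of each ST-HFD group was the same as for the AP-1 and EGR genes.

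**Figure D1:**
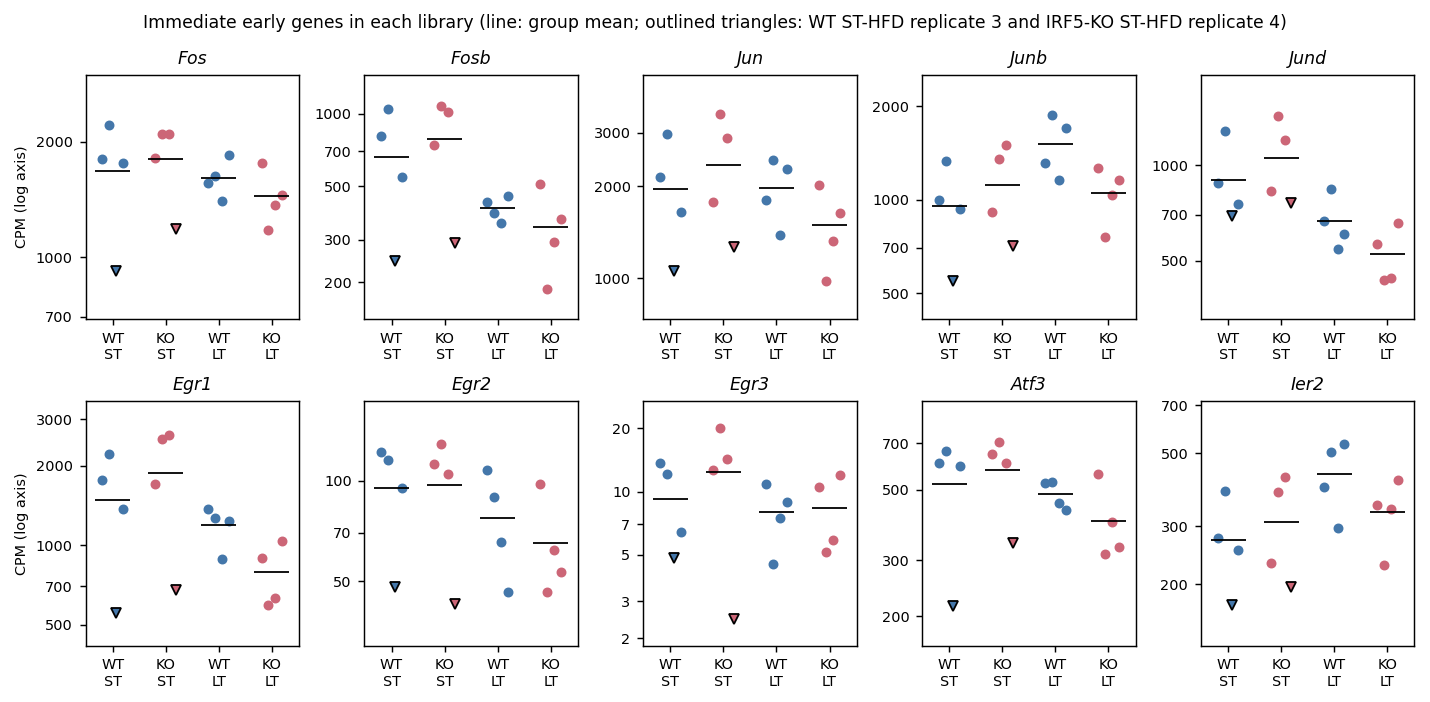
Level of each of the 10 genes in CPM (log axis) in the 16 libraries, 4 for each genotype at each diet duration, with a line at each group mean. The outlined triangles, WT ST-HFD replicate 3 and IRF5-KO ST-HFD replicate 4, are the lowest points of their group in all 10 panels.

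In 9 of the 16 libraries all 10 genes lay on the same side of their group means, below in 4 and above in 5, and in the other 7 they were split, which included 3 of the 4 WT LT-HFD libraries. WT ST-HFD replicate 3 was the lowest library of its group for 10 of 10 genes, and so was IRF5-KO ST-HFD replicate 4. Relative to the mean of the other 3 libraries of the group, Fosb was at 0.306-fold and 0.308-fold in these 2 libraries, Egr1 at 0.311-fold and 0.298-fold, and Jund at 0.712-fold and 0.657-fold. In WT ST-HFD replicate 3 the lowering was deepest for Fosb and Egr1. In IRF5-KO ST-HFD replicate 4 it was deepest for Egr3 at 0.157-fold, a value that rests on the 10 counts of that library, followed by Egr1 and Fosb. Averaged over the 10 genes on the log2 scale, WT ST-HFD replicate 3 lay at -0.85 and IRF5-KO ST-HFD replicate 4 at -0.91 from the mean of its group, a difference of log2 levels that included the library itself. WT ST-HFD replicate 2 (0.58) and IRF5-KO ST-HFD replicate 2 (0.52) lay farthest above. On LT-HFD, IRF5-KO replicate 2 was the lowest of its group for 10 of 10 genes, at -0.45 on average, and WT replicate 3 was below its group mean for 10 of 10 and the lowest for 7, at -0.27. The SD of this average over the 4 libraries was 0.62 in WT ST-HFD, 0.64 in IRF5-KO ST-HFD, 0.18 in WT LT-HFD and 0.36 in IRF5-KO LT-HFD, and the difference in spread between the durations was not tested.

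Summed macrophage markers were at 9513 CPM in WT ST-HFD replicate 3 and 9223 CPM in IRF5-KO ST-HFD replicate 4, within the 8425 to 10030 CPM of the other 6 ST-HFD libraries. Fibroblast and preadipocyte markers summed to 1120.4 and 663 CPM, against 983 to 1627 CPM in the other 6. Of the other 8 marker lists, WT ST-HFD replicate 3 was below the other 6 for endothelial cells (17.2 against 19.4 to 96.2 CPM) and mast cells (1.01 against 1.13 to 3.25 CPM) and above them for B cells (6.33 against 2.81 to 5.92 CPM), and IRF5-KO ST-HFD replicate 4 was below them for mesothelial cells (4.68 against 4.90 to 15.2 CPM) and neutrophils (28.8 against 29.7 to 46.0 CPM). Over the 16 libraries, with group means removed, the sums most correlated with the mean of the 10 genes were those of dendritic cells (0.57), mesothelial cells (0.55) and, inversely, T and NK cells (-0.50). Most of these lists were scarce, with 4 of 6 markers past the filter for dendritic and for endothelial cells, 2 of 6 for mesothelial cells, and 1 for each of T and NK cells, B cells, mast cells and neutrophils. The totals of the low libraries, 3860469 and 3910945 counts, were the 2 lowest on ST-HFD, while IRF5-KO ST-HFD replicate 2, which was high for these genes, had 3977065. The part of depth or of these cells in the spread was not tested. In bulk RNA, fewer cells expressing a gene and less RNA per cell cannot be told apart.

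**Figure D2:**
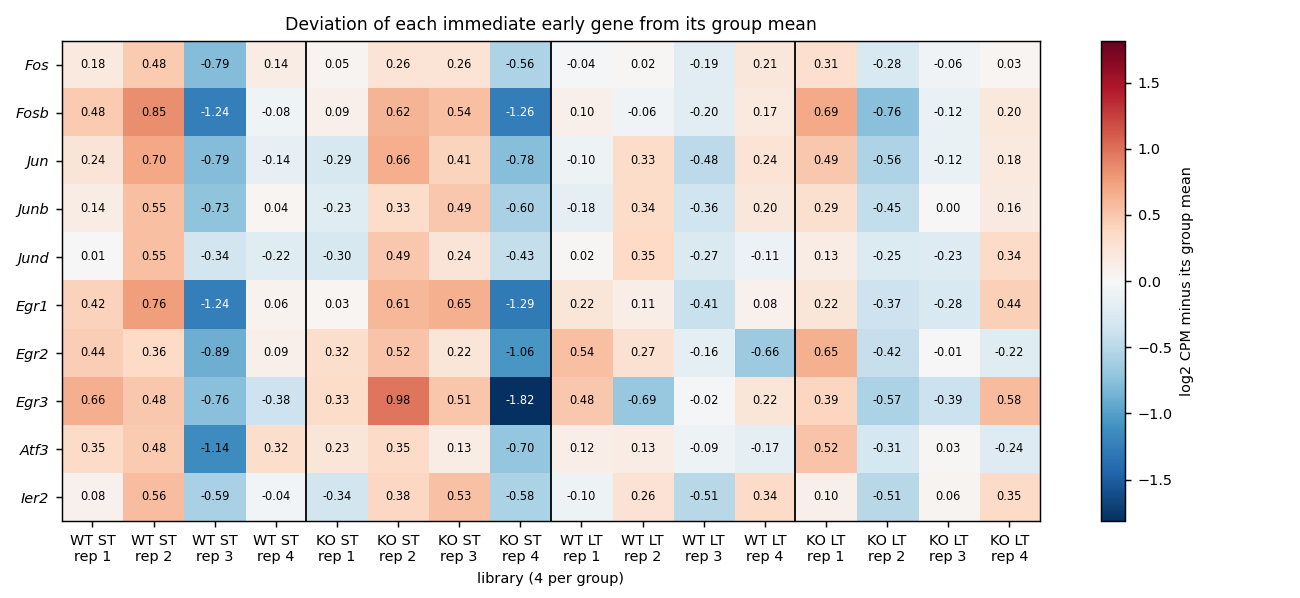
Log2 CPM of each of the 10 genes minus the mean of its group (colour and printed value), for the 16 libraries with 4 per group. The columns of WT ST-HFD replicate 3, IRF5-KO ST-HFD replicate 4, WT LT-HFD replicate 3 and IRF5-KO LT-HFD replicate 2 lie below 0 for 10 of 10 genes.

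With group means removed, the 45 pairs of the 10 genes had a median Pearson correlation of 0.83 over the 16 libraries, from 0.53 to 0.97. The libraries share normalization and handling, and the value is given as a description. The closest pairs were Jun with Junb (0.97), Junb with Ier2 (0.96), Fos with Fosb (0.96) and Fosb with Egr1 (0.95), and the loosest were Egr2 with Ier2 (0.53) and Jund with Atf3 (0.56). Fosb and Egr1 had the highest mean correlation with the other 9 genes (0.88 and 0.87), and Egr3, Egr2 and Jund the lowest (0.72, 0.72 and 0.74). Without the 2 low ST-HFD libraries the median over pairs was 0.68, from 0.09 to 0.95, and none of the 45 pairs was negative. Over the 8 ST-HFD libraries alone the median was 0.92, and over the 8 LT-HFD libraries alone it was 0.65. The pairs ran from 0.64 to 0.99 on ST-HFD, with 45 of 45 above 0.5, and from 0.07 to 0.97 on LT-HFD, with 28 of 45 above 0.5.

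Genes outside the 10 moved with them too. Of 9755 other genes averaging at least 20 counts, 29 (0.297%) had a correlation over 0.9 with the mean of the 10, 937 (9.61%) had one over 0.5, and the median was 0.01. The most alike was Cxcl10 (0.97), an interferon-inducible chemokine, followed by Kdm6b (0.97), the inducible demethylase of H3K27, Nfkbiz (0.96), an inducible nuclear partner of NF-κB, Nr4a3 (0.95), an orphan nuclear receptor of the immediate early class, and Klf4 (0.95), a zinc-finger factor of monocytes. Nfkbid (0.95), Ppp1r15a (0.94) and Pnrc1 (0.94) completed the 8 highest, and without the 2 low libraries their values ran from 0.86 to 0.95. Kdm6b, for example, was at 199 CPM in WT ST-HFD replicate 3 against 399.6 to 661 CPM in the other 3 WT ST-HFD libraries, and at 255 CPM in IRF5-KO ST-HFD replicate 4 against 473 to 749 CPM. Both low libraries lay below the rest of their group for this gene and the other 7, which follows from choosing them by a correlation that includes these libraries.

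Related genes differed in how far they followed. Of 24 other immediate early genes, 22 were abundant enough, and 18 of these had a correlation over 0.5 with the mean of the 10 (median 0.82), from Nr4a3 (0.95) down to Myc (0.26). Early inflammatory genes did likewise in 14 of 15 (median 0.80), with Nfkbiz highest and Il10 lowest (0.48). Among genes induced alongside as feedback, 5 of 17 did so (median 0.29), led by Zfp36 (0.92) and Dusp1 (0.91), which act on mRNA decay and on MAP kinase dephosphorylation respectively, while the sprouty-related gene Spred1 was at -0.33. AP-1 partners and ATF factors passed in 5 of 15 (median 0.43, highest Mafk at 0.91), heat shock genes in 5 of 13 (median 0.37, highest Dnajb4 at 0.85), and the upstream kinases and SRF cofactors in 2 of 21 (median 0.07, highest Mapkapk2 at 0.83). Against the 9.61% of all genes over 0.5, the mRNAs of the kinases that activate this class were thus near the background. The highest and lowest of each list were named after their values had been seen.

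**Figure D3:**
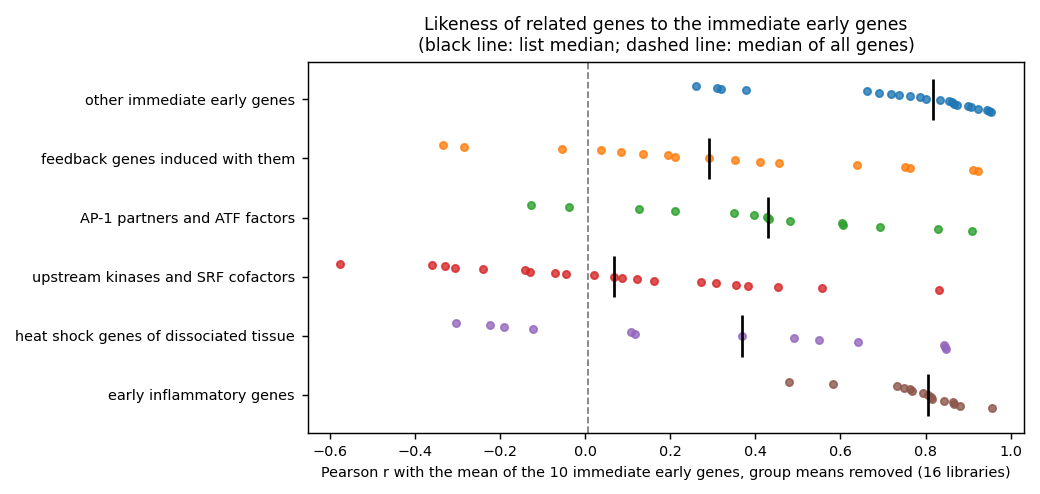
Pearson correlation (x axis) of each related gene with the mean of the 10 genes over 16 libraries after removal of group means, by list (y axis), with a black line at the list median and a dashed line at the median of all genes, 0.01. Other immediate early genes and early inflammatory genes lie mostly above 0.5 (medians 0.82 and 0.80), and upstream kinases and SRF cofactors scatter around 0.07.

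The comparison of genotypes asked what the loss of IRF5 in myeloid cells does to ATMs at each duration. On ST-HFD none of the 10 genes passed the test. All 10 had a higher mean in the libraries labelled IRF5-KO, by log2 fold changes from 0.02 (Egr2) to 0.40 (Egr3) and a median of 0.22, beside 0.00 over all genes. In edgeR's quasi-likelihood test no gene was called at an adjusted p under 0.05, where the background was 0.00913% of 10958 genes, and 0 had an unadjusted p under 0.05, where it was 1.84%. DESeq2 also called 0 of the 10, with 0 at an unadjusted p under 0.05. No gene had groups that did not overlap, against 1.46% of all genes. For Egr1 the means were 1479 ± 706 CPM in WT and 1877 ± 898 CPM in IRF5-KO (SD, n = 4). The log2 difference was 0.33 ± 0.43 (SE) with a 95% interval of -0.62 to 1.28. For Fos, the tightest after Jund in this comparison, the means were 1674 ± 543 and 1799 ± 428 CPM and the interval of the log2 fold change was -0.45 to 0.64. Leaving out WT ST-HFD replicate 3 brought the median to 0.02, and leaving out WT ST-HFD replicate 2 brought it to 0.42, so its size followed single libraries. It stayed above 0 in all 8 such fits, although 4 genes (Fos, Fosb, Egr2 and Atf3) turned negative without WT ST-HFD replicate 3. Without both low libraries it was 0.21, and 0 genes were called.

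On LT-HFD, 9 of the 10 genes had a lower mean in the libraries labelled IRF5-KO, and none passed the test. The median log2 fold change was -0.32, beside 0.00 over all genes, and it was -0.50 without IRF5-KO LT-HFD replicate 1 and -0.22 without IRF5-KO LT-HFD replicate 2. By edgeR's quasi-likelihood test each gene had an adjusted p of 0.853 or higher, against a background of 0.0182% of 10987 genes called, and 2 had an unadjusted p under 0.05, against 5.72% of all genes. Those were Egr1, at 1189.8 ± 211 CPM in WT and 790.1 ± 214 CPM in IRF5-KO (SD, n = 4), with a log2 fold change of -0.60 ± 0.20 (SE) and an adjusted p of 0.853 in that test, and Junb, at 1511 ± 336 and 1054 ± 219 CPM. The log2 fold change of Junb was -0.53 ± 0.19 (SE), and edgeR's test gave an adjusted p of 0.853. DESeq2 called 0 of the 10 and gave an unadjusted p under 0.05 for 2. In edgeR's test that number was 1 without WT LT-HFD replicate 2, 4 without IRF5-KO LT-HFD replicate 4 and 5 without WT LT-HFD replicate 3 or IRF5-KO LT-HFD replicate 1. The groups of both genes overlapped, as did those of the other 8, where 3.01% of all genes did not. Egr3 was the exception in direction, at 0.05. Summed macrophage markers were lower in the same libraries, at 6636 to 7244 CPM in IRF5-KO and 7324 to 9065 CPM in WT with no overlap, and their part in the lower means was not tested. The list did not move as one. C1qa was lower without overlap, at 899 to 1236 CPM in IRF5-KO and 1307 to 1675 CPM in WT. Emr1 (686 to 995 against 597 to 817 CPM) and Cd68 (468 to 701 against 421 to 616 CPM) were not lower in IRF5-KO. Dendritic cell markers (4 of 6 passed the filter) summed to 17.1 to 67.0 CPM in IRF5-KO and 46.7 to 119 CPM in WT. Fibroblast and preadipocyte markers overlapped between these groups, with the sums given above.

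Between diet durations, WT libraries showed no called change of the 10 genes, although edgeR's quasi-likelihood test called 25.3% of 11560 genes and the groups of 26.1% did not overlap. The fits of duration used all 16 libraries and share their libraries with the comparisons of genotype. The median log2 fold change, LT-HFD minus ST-HFD, was -0.15, beside 0.02 over all genes, with 3 genes higher and 7 lower. It was -0.38 without WT ST-HFD replicate 3 and -0.0088 without WT ST-HFD replicate 2. Junb and Ier2 stood apart from the others with higher means on LT-HFD and an unadjusted p under 0.05, against 35.9% of all genes. Junb was at 953 ± 322 CPM on ST-HFD and 1511 ± 336 CPM on LT-HFD (SD, n = 4). This was a log2 fold change of 0.66 ± 0.26 (SE), and edgeR's test gave an adjusted p of 0.0724. Ier2 was at 273 ± 87.3 and 433 ± 109.6 CPM. This was a log2 fold change of 0.67 ± 0.27 (SE), and edgeR's test gave an adjusted p of 0.08. DESeq2 called Junb (adjusted p = 0.0459), and edgeR without the filter on low counts called both. Fosb had the lowest mean change, -0.70 ± 0.40 (SE), with an interval of -1.54 to 0.13, and was at -0.40 without WT ST-HFD replicate 2. Without the 2 low libraries, Fosb alone was called, at -0.97 (edgeR's adjusted p = 0.0167), and Junb was at 0.48 with an adjusted p of 0.136. These libraries were picked for the low values of these same genes, so a narrower spread and higher ST-HFD means follow from their removal, in a fit where 20.4% of all genes were called. Between the same WT groups, adipocyte markers (5 of 6 passed the filter) summed to 67.3 to 146 CPM on ST-HFD and 148 to 179 CPM on LT-HFD, and mast cell markers (1 of 5 passed) to 1.01 to 3.25 and 5.24 to 10.1 CPM, both without overlap, and their part in the values of Junb and Ier2 was not tested.

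In IRF5-KO libraries, 3 of the 10 genes fell from ST-HFD to LT-HFD, namely Jund, Egr1 and Fosb. In the same edgeR test 32.8% of 11560 genes were called, 17.2% of the 11560 being called lower on LT-HFD, and 42.8% had an unadjusted p under 0.05, so 3 of 10 was near the share of all genes. Jund fell from 1056 ± 317 to 525 ± 106 CPM (SD, n = 4). This was a log2 fold change of -1.01 ± 0.22 (SE), and edgeR's test gave an adjusted p of 0.00235. It was the only one of the 10 whose groups did not overlap, against 29.4% of all genes. Egr1 fell from 1877 ± 898 to 790.1 ± 214 CPM. This was a log2 fold change of -1.25 ± 0.38 (SE), and edgeR's test gave an adjusted p of 0.0181. Fosb fell from 782 ± 358 to 339.6 ± 136 CPM. This was a log2 fold change of -1.20 ± 0.40 (SE), and edgeR's test gave an adjusted p of 0.0288. For both, 3 ST-HFD libraries exceeded every LT-HFD library and IRF5-KO ST-HFD replicate 4 fell among them. The other 7 genes did not pass, with log2 fold changes from -0.65 (Jun) to 0.11 (Ier2) and a median over all 10 of -0.57, beside 0.04 over all genes. DESeq2 called the same 3 genes.

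The calls in IRF5-KO rested unevenly on single libraries. Jund kept an adjusted p from 0.00105 to 0.0112 when each of the 16 libraries was left out in turn. Egr1 ranged from 0.0024 to 0.0631 and Fosb from 0.00562 to 0.0879, and each lost its call without IRF5-KO ST-HFD replicate 2 or 3 and without IRF5-KO LT-HFD replicate 2 or 3. Without the 2 low ST-HFD libraries, 7 genes were called lower, the 3 above with Fos (-0.47), Jun (-0.86), Egr2 (-0.82) and Atf3 (-0.71), and Egr1 was at -1.53, in a fit where 28.6% of all genes were called. Since the libraries removed held the lowest ST-HFD values of these same genes, larger falls follow from the choice, and these calls are no support for the change. Fibroblast and preadipocyte markers were higher in every LT-HFD library than in any ST-HFD library, with the sums given above. Summed macrophage markers were lower in IRF5-KO LT-HFD (6636 to 7244 CPM) than in IRF5-KO ST-HFD (8425 to 9768 CPM). Single genes of that list differed. Csf1r was lower without overlap, at 905 to 1173 CPM in IRF5-KO LT-HFD and 1759 to 2130 CPM in IRF5-KO ST-HFD. Emr1 was not lower, at 686 to 995 CPM in IRF5-KO LT-HFD and 507 to 728 CPM in IRF5-KO ST-HFD, with overlap. Mast cell markers (1 of 5 passed the filter) summed to 1.29 to 2.46 CPM in IRF5-KO ST-HFD and 5.96 to 20.2 CPM in IRF5-KO LT-HFD. B cell markers (1 of 5 passed) did not overlap either, at 2.81 to 5.92 and 6.23 to 8.99 CPM in IRF5-KO and 3.51 to 6.33 and 6.51 to 9.43 CPM in WT. In IRF5-KO, dendritic cell markers summed to 49.3 to 129 CPM on ST-HFD and 17.1 to 67.0 CPM on LT-HFD, and adipocyte markers to 77.2 to 206 and 168 to 360.0 CPM, with overlap. The part of these cells in the differences between durations was not tested.

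**Figure D4:**
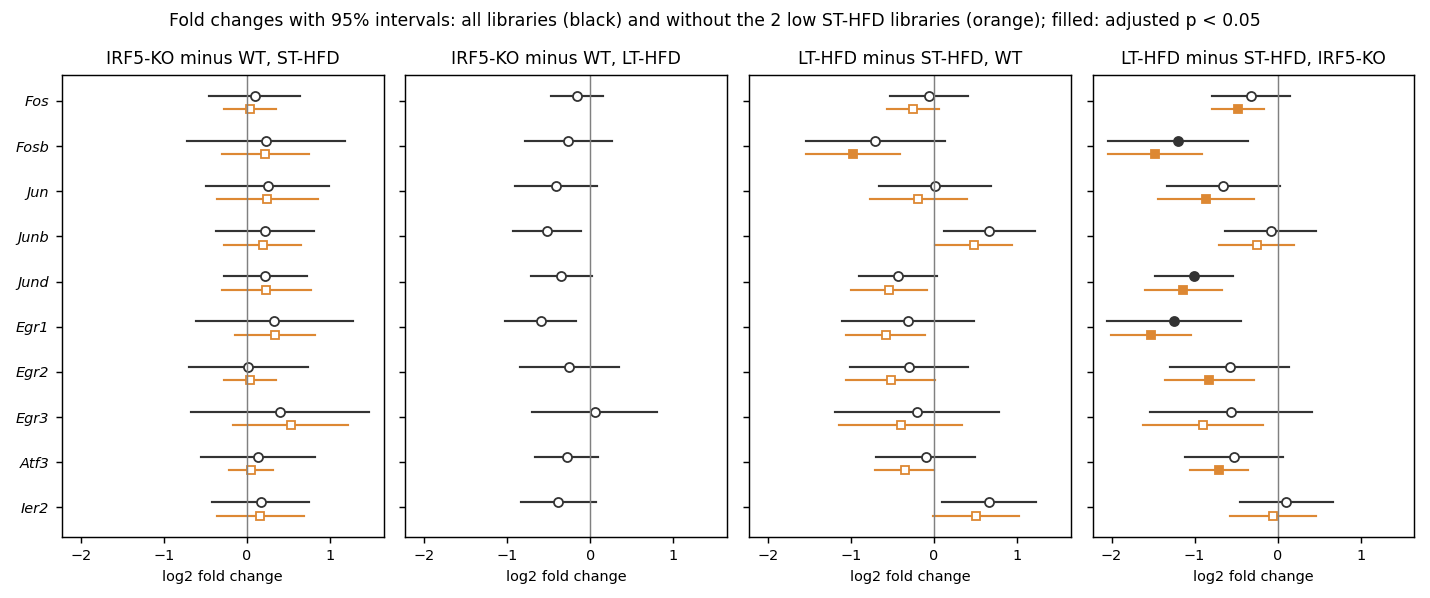
Log2 fold change (x axis) of each of the 10 genes with its 95% interval for the 4 comparisons of 2 groups, from all libraries (black circles) and without the 2 low ST-HFD libraries (orange squares, not drawn for LT-HFD alone), filled where the adjusted p was under 0.05. With all libraries only Fosb, Jund and Egr1 are filled, in the comparison of durations in IRF5-KO.

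Whether the effect of duration differed between the genotypes was tested by the interaction. It was called for 0 of the 10 genes and for 0 (0%) of the 11560 genes tested by edgeR's quasi-likelihood test. None of the 10 had an unadjusted p under 0.05, against 3.93% of all genes, and DESeq2 called 0 with 1 at an unadjusted p under 0.05. All 10 interaction terms were negative, from -0.26 (Fos) to -0.93 (Egr1) on the log2 scale with a median of -0.53, beside -0.01 over all genes. Leaving out WT ST-HFD replicate 2 brought the median to -0.78, and leaving out replicate 3 of the same group brought it to -0.31 and Fos to -0.060. Egr3 was at -0.035 when IRF5-KO ST-HFD replicate 2 was left out. The term of Egr1 was -0.93 ± 0.53 (SE) with an interval of -2.05 to 0.19, and that of Junb was -0.75 ± 0.37 (SE) with an interval of -1.52 to 0.03. The fall of Jund, Egr1 and Fosb in IRF5-KO is therefore not shown to differ from the change in WT.

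Of 107 genes of 6 related lists, 26 (24.3%) were called for diet duration in WT and 38 (35.5%) in IRF5-KO, near the 25.3% and 32.8% of all genes in edgeR's test, so the counts by list are given as a description. Among other immediate early genes, 7 of 23 rose and 1 fell in WT, where Cyr61, a matricellular protein, rose by 2.41 and Sgk1, a serum-induced kinase, by 0.96 on the log2 scale, and Klf4 was at -1.30 (edgeR's adjusted p 5.24e-05, 0.00121 and 0.00211). In IRF5-KO 2 of 23 rose and 5 fell, with Klf4 at -1.83 and Ppp1r15a at -1.35. Without the 2 low libraries 4 rose in WT and 8 fell in IRF5-KO. Feedback genes split in both genotypes. The sprouty genes Spry1, Spry2 and Spry4 inhibit receptor tyrosine kinase signals. They rose in WT (2.54, 1.74 and 3.09) and in IRF5-KO (2.11, 1.38 and 2.39), while the mRNA-decay factor Zfp36l2 fell (-0.80 and -1.07). On ST-HFD these sprouty genes were scarce, at 7.62 CPM or less in every library. Spry4 averaged 0.623 CPM in WT ST-HFD and 1.13 CPM in IRF5-KO ST-HFD, where its lowest library was at 0. Its fold changes therefore rest on few counts. Fibroblast and preadipocyte markers were higher on LT-HFD too, with the sums given above. Their part in the rises of Cyr61 and the sprouty genes was not tested. In all, 5 of 18 feedback genes rose and 1 fell in WT, and 4 rose and 5 fell in IRF5-KO.

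Among AP-1 partners and ATF factors, 0 of 16 rose and 2 fell in WT, among them Jdp2 (-0.73), a repressor that pairs with Jun. In IRF5-KO 0 rose and 6 fell, Jdp2 (-0.84), Maf (-0.99), Atf6 (-0.48) and Cebpb (-0.64) among them. Upstream kinases and SRF cofactors fell in 5 of 22 in WT and in 6 of 22 in IRF5-KO, where 1 rose. The SRF cofactors Mkl1 and Mkl2 fell in WT (-0.96 and -1.17) and in IRF5-KO (-0.77 and -1.09). Heat shock genes, which are also induced in dissociated tissue, rose in 1 of 13 and fell in 3 in WT, and rose in 1 and fell in 5 in IRF5-KO, where Hspa1a was at -1.61. Of 15 early inflammatory genes, Ccl4 alone was called in WT (1.03), and Ccl7 (-1.55), Il1b (-1.95) and Icam1 (-0.68) fell in IRF5-KO. Without the 2 low libraries, in which these genes were low as well, 8 of the 15 fell in IRF5-KO, a direction that the removal favours, beside 28.6% of all genes called. With the replicate number as a block, 5 other immediate early genes and 4 feedback genes rose and 3 AP-1 partners and 4 kinases or cofactors fell in WT, while 5 feedback genes, 0 kinases or cofactors and 0 heat shock genes rose in IRF5-KO, and the other counts by list were as without it. In the comparisons of genotype 0 genes of the 6 lists were called at either duration by edgeR or by DESeq2. An unadjusted p under 0.05 was found for 1 of 106 list genes on ST-HFD (0.943%, against 1.84% of all genes) and for 16 of 106 on LT-HFD (15.1%, against 5.72%). In the interaction 0 of 107 were called, and 5 (4.67%, against 3.93%) had an unadjusted p under 0.05.

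Ratios of 2 of the genes within a library do not depend on its scaling and remove a shift that both share. Per kilobase, the log2 ratio of Junb to Jund ran from -0.80 to -0.14 over the 8 ST-HFD libraries and from 0.33 to 1.02 over the 8 LT-HFD libraries. On that scale Jund exceeded Junb in every ST-HFD library and Junb exceeded Jund in every LT-HFD library. Which gene is the higher depends on the exon lengths used, and the shift between the durations does not. Without the correction for length, Junb was at 998 and Jund at 879 CPM in WT ST-HFD replicate 1. The mean difference of this log2 ratio between the durations was 1.03. WT ST-HFD replicate 3 (-0.80) and IRF5-KO ST-HFD replicate 4 (-0.56), low in both genes, lay on the side of the other ST-HFD libraries. Of the 45 ratios, 5 (11.1%) did not overlap between the durations, Junb to Jund, Junb to Fosb, Junb to Jun, Ier2 to Jun and Ier2 to Jund. Among all 64292130 pairs of the 11340 genes with a count in each library the share was 13.7%, so the number of separated ratios was near the background and is not particular to these genes. Fos to Jun, the classic AP-1 pair, overlapped, at -0.28 to 0.52 in ST-HFD libraries and -0.14 to 0.70 in LT-HFD libraries. None of the 10 genes taken alone separated the 8 libraries of each duration, against 15.2% of these genes. Junb to Jund was singled out after the values had been seen.

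**Figure D5:**
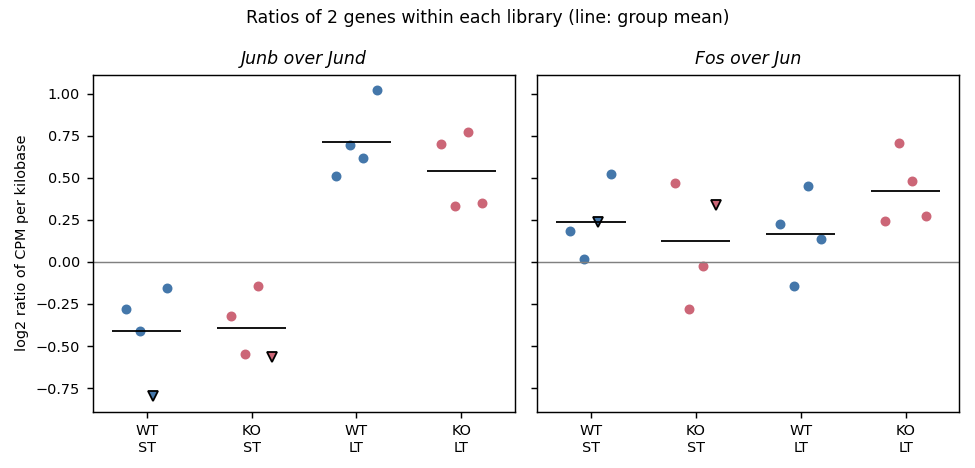
Log2 ratio of CPM per kilobase of Junb over Jund and of Fos over Jun in each of the 16 libraries by group, with a line at the group mean and outlined triangles for WT ST-HFD replicate 3 and IRF5-KO ST-HFD replicate 4. Junb over Jund lies below 0 in every ST-HFD library and above 0 in every LT-HFD library, while Fos over Jun overlaps between the durations.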

How the data were processed

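F4/80+ ATMs from 16 mice were sequenced as ribosome-depleted stranded total RNA, 4 libraries per group. Per the submitters' processing notes, fastp 0.19.11 and STAR 2.7.3a were used, and the paper's methods give mm10 as the genome. The authors deposited raw counts per gene without normalization, and the annotation release and strand setting are not given in the sources used here. The 37310 identifiers were matched to GENCODE vM21 (GRCm38) for 32620. Promoter sequences and gene starts are from RefSeq on GRCm38.p6, and exon lengths from GENCODE vM21.

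Counts were analysed in R 4.3.3. edgeR 4.0.16 with filterByExpr, TMM and the quasi-likelihood test gave log2 fold changes, standard errors, 95% intervals and p-values, adjusted by Benjamini-Hochberg over all genes tested and called under 0.05. Genotypes were fitted within each diet duration (8 libraries), and durations and the interaction over 16. DESeq2 1.42.0 was the alternative tool. CPM used TMM factors over 16 libraries, and log2 CPM a prior count of 2. The code was tested on simulated data. No 2 libraries of a group agreed within sampling noise. Totals of 3279332 to 4958131 counts limit the precision of scarce genes such as Egr3. The 10 genes and the lists were chosen with earlier results of these data known. All 10 were named throughout. From each list, genes with an adjusted p under 0.05 (at most 5 per direction) could be named, and the 8 genes most alike. The values of some list genes are not reported here. Gene symbols follow the count table, in which Ccn1 is Cyr61, Mrtfa is Mkl1, Mrtfb is Mkl2 and Adgre1 is Emr1.

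Replicate numbers were checked by correlating deviations from group means between genotypes. On ST-HFD the same-numbered libraries had 0.37, 0.48, 0.18 and 0.30, while differently numbered ones reached 0.47. On LT-HFD the same-numbered libraries had -0.07, -0.15, 0.06 and 0.23. The main fits did not use the numbers as pairs at either duration, and a block for the replicate number was run only as an alternative. Alternatives were DESeq2, RLE size factors, library size alone, the 3 features of most counts left out, no low-count filter, a replicate block, 16 libraries for the genotype fits and each library left out in turn. Leaving out both low ST-HFD libraries, the correlations by duration and the ratios were added after seeing the data.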

Additional observations from a re-analysis of the deposited data

Results flagged for a closer look

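Atf3 in WT ST-HFD replicate 3 was at 216 CPM, while the nearest of the other 3 libraries of its group was at 594 CPM and the highest at 664 CPM. The gap to the nearest library took 0.844 of the whole range of the group, above Dixon's critical value at 95% for 4 samples. This was the only such value among 40 sets of 1 gene in 1 group, a procedure in which chance gives about 1 in 20. The same library was the lowest of its group for the other 9 genes too.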

How the results depend on the processing

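The 50 log2 fold changes (10 genes in 5 comparisons) were recomputed under the alternatives, giving 1000 values, of which 949 kept their direction and side of the threshold, 31 changed sign, 8 lost and 12 gained a call. None of the 3 called changes turned sign. Besides the values with single libraries left out, sign changes were those of Egr2 for genotype on ST-HFD (-0.0092 with library size alone and -0.0033 with the replicate block), Jun for duration in WT (-0.080 with library size alone, -0.0086 without the low-count filter and -0.19 without both low libraries) and Ier2 for duration in IRF5-KO (-0.059 without both low libraries). The number of genes called for duration in WT was 1 with DESeq2, 2 without the low-count filter and 1 without both low libraries, and 0 to 2 with single libraries left out. For duration in IRF5-KO it was 7 without both low libraries and 1 to 4 with single libraries left out. The replicate block left the calls at 0 for both comparisons of genotype, 0 and 3 for duration in WT and IRF5-KO and 0 for the interaction. The median correlation between the 10 genes was 0.82 with library size alone and 0.83 with a prior count of 0.5, and it was 0.68 without both low libraries and 0.65 over the LT-HFD libraries. The cause of these changes was not tested.

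With each library left out in turn, sign changes occurred for genotype on ST-HFD in Fos (-0.11 to 0.25), Fosb (-0.045 to 0.52), Egr2 (-0.20 to 0.26), Atf3 (-0.12 to 0.32) and Ier2 (-0.012 to 0.37), for genotype on LT-HFD in Egr3 (-0.17 to 0.25), for duration in WT in Fos (-0.26 to 0.10), Jun (-0.19 to 0.28), Egr3 (-0.41 to 0.060) and Atf3 (-0.36 to 0.035), and for duration in IRF5-KO in Junb (-0.25 to 0.086) and Ier2 (-0.060 to 0.30). For duration in WT, Junb was called without WT ST-HFD replicate 2, and Ier2 without WT ST-HFD replicate 2 or WT LT-HFD replicate 3. With 4 libraries per group, the 95% intervals on ST-HFD spanned over 1 on the log2 scale for most genes, which limits what could be detected.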

Other observations

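All 15 early inflammatory genes were also low in the 2 low ST-HFD libraries, compared with the mean of the other 3 libraries of the group. They ran from 0.110-fold (Cxcl1) to 0.536-fold (Icam1) in WT ST-HFD replicate 3 and from 0.247-fold (Cxcl1) to 0.515-fold (Nfkbia) in IRF5-KO ST-HFD replicate 4. Tnf was at 0.258-fold in WT ST-HFD replicate 3 and 0.382-fold in IRF5-KO ST-HFD replicate 4, Il1b at 0.184-fold and 0.425-fold, Tnfaip3, an inhibitor of NF-κB signalling, at 0.146-fold and 0.323-fold, and the chemokine Cxcl1 at 0.110-fold and 0.247-fold. Heat shock genes differed among themselves there. Hspa1a was at 0.598-fold and 0.377-fold, whereas Hspb1 was at 2.06-fold in WT ST-HFD replicate 3 and 0.579-fold in IRF5-KO ST-HFD replicate 4, and Hspa8 at 0.898-fold and 0.962-fold. Of 9755 genes, those with the most opposite pattern to the mean of the 10 were Ptger2, a prostaglandin E2 receptor (correlation -0.89), Rg9mtd1 (-0.88) and Dhrs3, a retinal reductase (-0.85), with group means removed over 16 libraries. These genes were chosen after their values had been seen.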
